A study of Mus musculus with 4 samples.

Results

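Brain endothelial cells (ECs) pass iron from the blood to the brain, and the genes described here serve the uptake, storage, export and sensing of iron in that layer. The 10 genes were chosen by name for these roles: *Trf*, *Tfrc*, *Steap3* and *Slc11a2* for uptake, *Fth1* and *Ftl1* for storage, *Slc40a1* and *Heph* for export, and *Aco1* and *Ireb2* for sensing. All 10 were found among the 12693 genes of the series, and the mean over the samples reached the minimum for the test, 10 normalized counts, for all 10.

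Iron circulates bound to transferrin, which binds the transferrin receptor at the luminal face of brain ECs and is taken up into endosomes, where the metal is reduced and released through a divalent metal transporter. Inside the cell iron is used, stored in a shell of ferritin heavy and light chains, or exported by ferroportin with the help of a ferroxidase. Iron regulatory proteins bind hairpins called iron-responsive elements in several of these mRNAs, which blocks translation when the hairpin lies in the 5′ UTR and protects the mRNA from decay when it lies in the 3′ UTR, so that protein and transcript levels of these genes need not move together.

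The study asks what the transcription factor FOXQ1 does in brain ECs. RNA was sequenced from CD31-sorted ECs of the cerebral cortex of C57BL/6 mouse embryos at embryonic day 18, with 2 WT samples and 2 samples from FOXQ1fl/fl;Tie2-Cre embryos, called *Foxq1* cKO. The labels give only WT for the controls, and the methods describe controls as littermates without the Cre transgene. Tie2-Cre is active in ECs and, as background, also in blood-forming cells and their descendants. The labels and the methods describe RNA extracted with Trizol, and the study elsewhere names Smart-seq2, an amplification protocol for small inputs.

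WT samples 1 and 2 held 21466436 and 17901203 reads on the listed genes, and *Foxq1* cKO samples 1 and 2 held 15827166 and 16963866. Values are normalized counts, which are reads per gene divided by 1 size factor per sample. Fold changes are *Foxq1* cKO against WT on the log2 scale, with 1 added to every value, so that changes of low genes are understated. Nothing states that the samples came from separate litters or pools, so the p-values measure only the spread between these samples, which may be technical. For 2 samples against 2, the smallest p of a two-sided exact permutation test is 0.333.

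The deleted gene gives a check of the labels. In the WT samples *Foxq1* stood at 353 and 297 normalized counts, against 5.44 and 32.6 after deletion. Both *Foxq1* cKO samples were far below both WT samples, in the direction of the labels. Part of its exon overlaps the antisense gene *A530084C06Rik* over 3200 bases, and whether the counting was stranded is not given in the sources used here, so reads from that stretch cannot be told apart.

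Of the 10 iron genes, *Fth1* was higher and *Trf* was lower in *Foxq1* cKO samples at an unadjusted p under 0.05 in limma, and 8 did not pass it. Among the 12472 genes tested, 2.17% were higher and 3.05% were lower at this level, 5.22% in all. No member had an adjusted p under 0.05 (limma with Benjamini-Hochberg adjustment over all genes tested), nor did any other gene (0.0% of 12472), against 651 genes at an unadjusted p under 0.05, a number that was 276 without *Foxq1* cKO sample 1 and 1569 without WT sample 2. On read counts recovered from the values, an adjusted p under 0.05 was reached by 0 genes in edgeR and 59 in DESeq2, none of them a member. The groups did not overlap for 4 members: both *Foxq1* cKO samples lay above both WT samples for *Fth1* and below them for *Trf*, *Steap3* and *Aco1*, also after TMM scaling and quantile normalization. That arrangement was found for 18% of all genes tested in the higher direction and for 18% in the lower direction. The median log2 fold change of the 10 genes was -0.004, beside 0.009 for all genes tested and 0.085 for the 10 genes after quantile normalization. Single members ranged from -0.74 to 1.58, and their summed normalized counts, mostly *Fth1*, were 113% of WT.

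**Figure D1:**
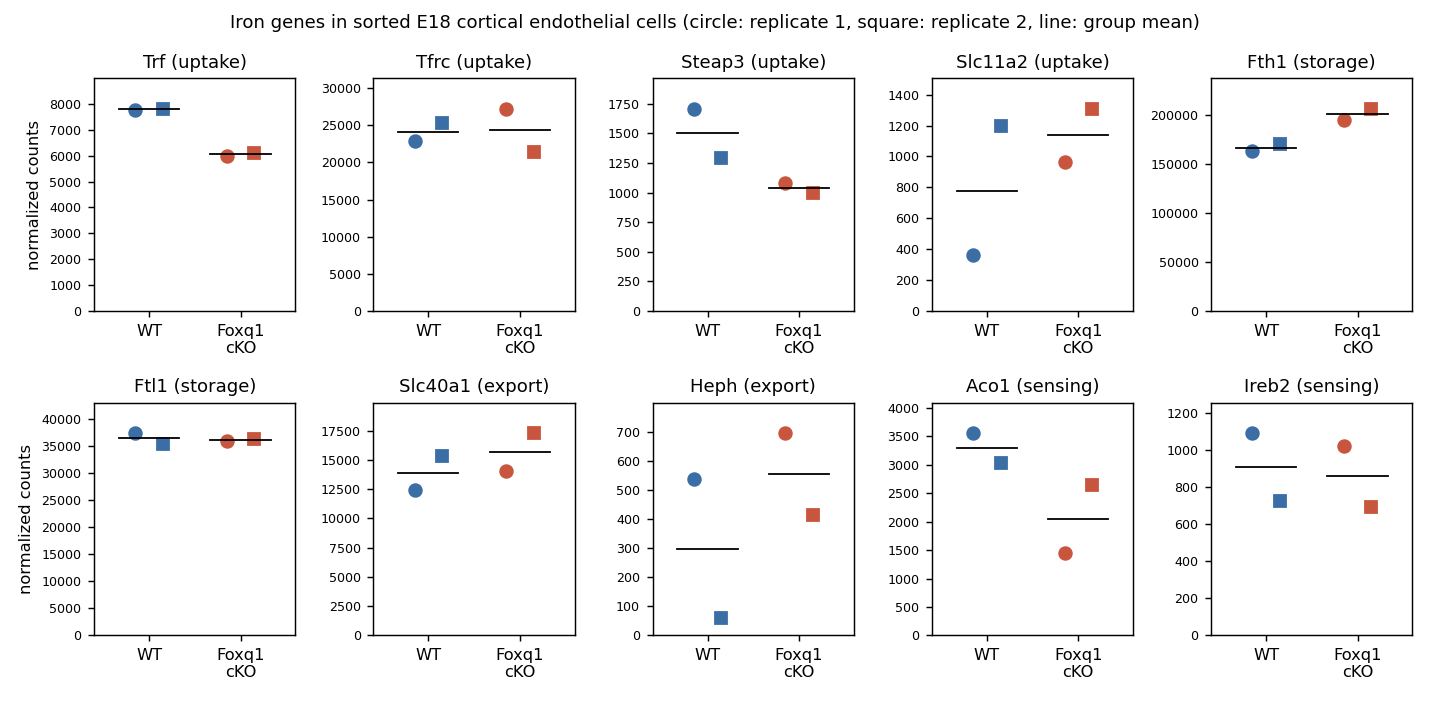
Normalized counts (vertical axes, each from 0) of the 10 iron genes in the 2 WT samples (blue) and the 2 *Foxq1* cKO samples (red); circles are replicate 1, squares replicate 2, and lines the group means. Both *Foxq1* cKO points lie above the WT points for *Fth1* and below them for *Trf*, *Steap3* and *Aco1*, while 1 WT sample lies far below the other samples for *Slc11a2* and *Heph*.

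The uptake genes start with the carrier itself. *Trf* encodes transferrin, which the liver makes in bulk and several brain cell types also express. The gene lies at chr9:103204001-103230444 on the minus strand in GRCm38. *Trf* had 7771 and 7810 normalized counts in WT samples and 6006 and 6093 in *Foxq1* cKO samples. The samples of each group lay very close together and the groups were well apart, with the *Foxq1* cKO mean at 77.7% of the WT mean. Its log2 fold change was -0.36 (standard error 0.137, 95% interval from -0.70 to -0.03), and limma gave an unadjusted p of 0.0370 (adjusted p 0.857). The unadjusted p in limma was 0.0799 after quantile normalization (log2 fold change -0.28), 0.252 without a trend and 0.0505 with the replicate block (both -0.36). Its call at 0.05 thus depends on these choices. With a sample left out the log2 fold change ranged from -0.375 to -0.355, which describes its size and not its call at 0.05. In GENCODE M21 annotation, 79.8% of the 50-base words of the *Trf* transcript also occur in the annotated gene *Gm20425*, and the assignment of reads between them is uncertain.

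*Tfrc* encodes the transferrin receptor, a protein for which brain capillaries are known. It had 22881 and 25288 normalized counts in WT samples and 27214 and 21430 in *Foxq1* cKO samples. The *Foxq1* cKO samples lay on either side of the WT samples, so the groups overlapped fully. *Tfrc* differed by a log2 fold change of 0.01 (95% interval from -0.35 to 0.36), and its sign turned when WT sample 1 (-0.07) or *Foxq1* cKO sample 1 (-0.17) was left out. The adjusted p in limma was 0.997.

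*Steap3* encodes an endosomal reductase that turns ferric into ferrous iron after release from transferrin. Its values were 1706 and 1293 normalized counts in WT samples and 1083 and 1000 in *Foxq1* cKO samples. Both *Foxq1* cKO samples lay below both WT samples, and WT sample 1 stood above the rest. The *Foxq1* cKO mean was 69.5% of the WT mean, with a log2 fold change of -0.51 (standard error 0.276, 95% interval from -1.19 to 0.16) and an adjusted p of 0.857 in limma. The value was -0.31 without WT sample 1 and -0.71 without WT sample 2.

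*Slc11a2* encodes DMT1, the divalent metal transporter that carries ferrous iron out of endosomes. Its exons overlap the antisense gene *Gm5475* over 402 bases, and reads from that stretch are uncertain. It had 363 and 1195 normalized counts in WT samples and 967 and 1308 in *Foxq1* cKO samples. WT sample 1 was low and the other samples were near each other, and the groups overlapped. The WT samples differed from each other 3.29-fold, against 1.35-fold between the *Foxq1* cKO samples. Its difference of 0.77 on the log2 scale (standard error 0.586, adjusted p 0.873 in limma) rests on WT sample 1: without it the value was -0.09, and without WT sample 2 it was 1.63 (unadjusted p 0.00651 in limma).

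Storage is served by the ferritin chains, of which the heavy chain oxidizes iron and the light chain helps to form the mineral core. *Fth1*, the heavy chain gene at chr19:9980598-9985098 on the plus strand in GRCm38, had 162875 and 169772 normalized counts in WT samples and 194908 and 206091 in *Foxq1* cKO samples. Both *Foxq1* cKO samples were above both WT samples, and the gap between the groups was wider than the gap within either. *Fth1* took 0.900% and 0.951% of the reads on listed genes in the WT samples and 1.13% and 1.19% in *Foxq1* cKO samples, which is a share that does not depend on the size factors. By reads it ranked 3 among all genes in each WT sample, 2 in *Foxq1* cKO sample 1 and 1 in *Foxq1* cKO sample 2. Its log2 fold change was 0.27 (standard error 0.074, 95% interval from 0.09 to 0.45), a mean of 121% of WT, and limma gave an unadjusted p of 0.0107 (adjusted p 0.857). The unadjusted p was 0.059 in DESeq2, 0.382 in limma without a trend and 0.0517 in limma without WT sample 1, where the log2 fold changes were 0.27, 0.27 and 0.24.

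*Ftl1*, the light chain gene, had 37361 and 35384 normalized counts in WT samples and 35827 and 36234 in *Foxq1* cKO samples. All 4 samples were close together, with the *Foxq1* cKO samples between the WT samples. The log2 fold change was -0.01 (95% interval from -0.24 to 0.22, adjusted p 0.987 in limma), and it was 0.03 without WT sample 1. After quantile normalization it was 0.07, with both *Foxq1* cKO samples above the WT samples. Since 90.6% of the 50-base words of the *Ftl1* transcript also occur in 6 other annotated loci, 3 of them named as *Ftl1* or *Ftl2* pseudogenes, and 355 bases are antisense to *Gm10252*, its level is uncertain.

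Read as a ratio within each sample, on normalized counts per transcript length, *Fth1* to *Ftl1* was 4.54 and 5.0 in WT samples and 5.67 and 5.93 in *Foxq1* cKO samples. Both *Foxq1* cKO samples had a higher ratio than either WT sample. The mean log2 ratio differed by 0.28, and the exact two-sided permutation test gave p = 0.333, the smallest value that this design allows. With a sample left out the difference ranged from 0.21 to 0.35. The ratio carries the uncertainty of the *Ftl1* level, and it is not a measure of ferritin protein.

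*Slc40a1* encodes ferroportin, the known iron exporter of mammalian cells. It had 12419 and 15372 normalized counts in WT samples and 14046 and 17290 in *Foxq1* cKO samples. The groups overlapped, since *Foxq1* cKO sample 1 lay between the WT samples. The difference was 0.17 on the log2 scale (standard error 0.167, 95% interval from -0.23 to 0.58), with an adjusted p of 0.893 in limma. It was 0.02 without WT sample 1 or *Foxq1* cKO sample 2, 0.33 without WT sample 2 and 0.32 without *Foxq1* cKO sample 1.

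*Heph* encodes hephaestin, a membrane ferroxidase that works beside ferroportin, and 29 bases of its exons overlap the antisense gene *Hsf3*. Its values were 537 and 58.8 normalized counts in WT samples and 695 and 412 in *Foxq1* cKO samples. Behind these were 637, 59, 638 and 405 reads. WT sample 2 was far below the other samples, and WT sample 1 lay between the *Foxq1* cKO samples. The spread within WT was 9.13-fold, the widest within-group spread of the 10 genes. Its difference of 1.58 on the log2 scale (standard error 1.05, adjusted p 0.857 in limma) rests on WT sample 2: it was -0.005 without that sample and 3.16 without WT sample 1 (unadjusted p 0.00254 in limma). On recovered reads edgeR and DESeq2 both gave 0.89.

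The sensors are the iron regulatory proteins. *Aco1* encodes the bifunctional protein that is cytosolic aconitase when it carries an iron-sulfur cluster and an RNA-binding regulator when it does not. It had 3557 and 3029 normalized counts in WT samples and 1458 and 2646 in *Foxq1* cKO samples. Both *Foxq1* cKO samples were below both WT samples, *Foxq1* cKO sample 1 by far and *Foxq1* cKO sample 2 narrowly. The *Foxq1* cKO mean was 62.3% of the WT mean, with a log2 fold change of -0.74 (standard error 0.317, 95% interval from -1.51 to 0.03), and p values of 0.0578 unadjusted and 0.857 adjusted in limma. The estimate was -1.17 without *Foxq1* cKO sample 2 (unadjusted p 0.0118 in limma) and -0.31 without *Foxq1* cKO sample 1, so *Foxq1* cKO sample 1 sets most of its size. In DESeq2 the unadjusted p was 0.0313, at a log2 fold change of -0.68.

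*Ireb2* encodes the other regulator, which is degraded when iron is plentiful. It had 1092 and 725 normalized counts in WT samples and 1023 and 693 in *Foxq1* cKO samples. In each group replicate 1 was high and replicate 2 was low, and the groups overlapped. The difference was -0.08 on the log2 scale (95% interval from -0.99 to 0.83, adjusted p 0.981 in limma). It was 0.22 without WT sample 1 and 0.20 without *Foxq1* cKO sample 2, so no direction can be given.

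**Figure D2:**
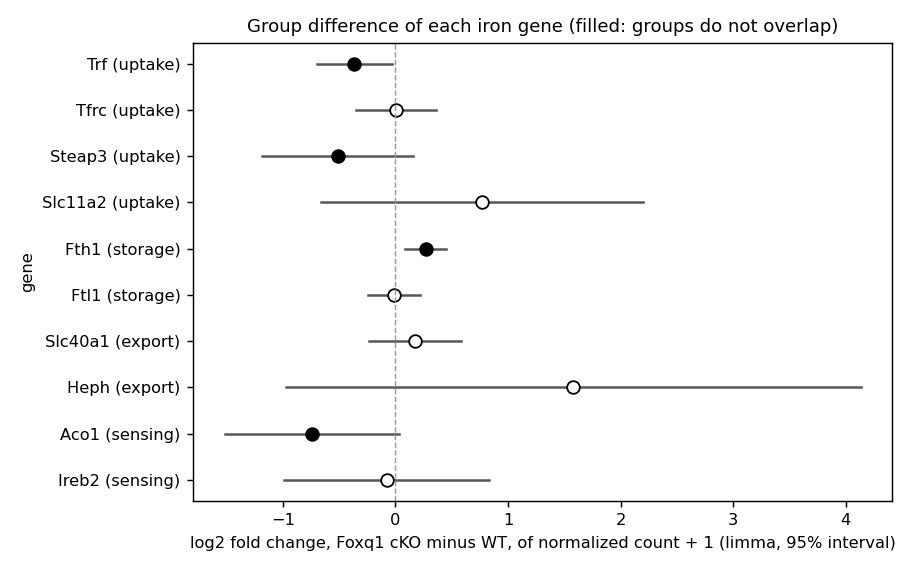
Log2 fold change (horizontal axis, *Foxq1* cKO against WT, on normalized counts plus 1) of each iron gene with its 95% interval from limma, with filled points where the groups do not overlap. The intervals of *Fth1* (0.09 to 0.45) and *Trf* (-0.70 to -0.03) do not include 0 before adjustment for the number of genes, and the interval of *Heph* is the widest of the 10.

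Levels were compared between genes per kilobase of transcript, as means of the 4 samples. *Fth1* was highest at 197400 normalized counts per kilobase, followed by *Ftl1* at 37400. *Tfrc* had 4950 and *Slc40a1* 4386 normalized counts per kilobase, and the ranges of these neighbours over the 4 samples overlapped. *Trf* stood apart below them at 2691. The sensors and the remaining genes were lower, with *Aco1* at 697, *Steap3* at 434, *Slc11a2* at 317, *Ireb2* at 153 and *Heph* at 89.7 normalized counts per kilobase. From *Aco1* down to *Heph* each gene overlapped the next in the range of its samples, while the ranges of *Aco1* and *Steap3* lay wholly above those of *Ireb2* and *Heph*.

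Several of these transcripts share a hairpin that the regulators bind, and its sequence is shown because it is the part of these mRNAs that the known control of translation and decay acts on. The motif CNNNNNCAGTGN was searched in the annotated UTRs on the sense strand, with the 5 bases before the loop paired to the 5 bases after it, and at least 3 of 5 paired bases below the bulged C. It was found in the 5′ UTR of *Fth1*, *Ftl1* and *Slc40a1*, with 1 match each, and in the 3′ UTR of *Tfrc*, with 4 matches. Of 21888 protein-coding genes, 0.046% held a match in a 5′ UTR and 0.164% in a 3′ UTR. The sequences are from GENCODE M21 transcripts on GRCm38, 5′ to 3′, with the bulged C and the loop in capitals.
*Fth1*, chr19:9982732-9982761, plus strand: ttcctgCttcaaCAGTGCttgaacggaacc
*Ftl1*, chr7:45459778-45459807, minus strand: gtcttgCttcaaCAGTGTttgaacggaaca
*Slc40a1*, chr1:45925464-45925493, minus strand: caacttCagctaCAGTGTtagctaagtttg
*Tfrc*, chr16:32631219-32631248, plus strand: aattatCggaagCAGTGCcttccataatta
*Tfrc*, chr16:32631598-32631627, plus strand: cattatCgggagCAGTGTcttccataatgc
*Tfrc*, chr16:32631663-32631692, plus strand: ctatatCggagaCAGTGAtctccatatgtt
*Tfrc*, chr16:32631710-32631739, plus strand: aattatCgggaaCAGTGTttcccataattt
The *Fth1* and *Ftl1* windows are the same at 26 of 30 bases, whereas *Slc40a1* matches *Fth1* at 13 of 30 and the *Tfrc* windows at 9 to 11. Thus the ferritin genes carry nearly the same element, and whether it bears on their transcript levels was not tested. A match is a description of the sequence, and no match was found in *Trf*, *Steap3*, *Slc11a2*, *Heph*, *Aco1* or *Ireb2* under these letters. The search misses any element whose upper stem is not fully paired, so a gene without a match may still carry an element. *Epas1*, whose mRNA is known to be controlled by iron regulatory proteins, had no match either.

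The other genes of iron handling were taken from 6 lists. Of 7 genes of transferrin receptor trafficking, 2 were higher and 0 were lower at an unadjusted p under 0.05 in limma (2.17% and 3.05% of all genes tested), and the median log2 fold change was 0.11. *Hfe*, whose protein binds the transferrin receptor, had 648 and 1158 normalized counts in WT samples and 1958 and 2007 in *Foxq1* cKO samples. The *Foxq1* cKO samples were above both WT samples, with a log2 fold change of 1.19 (standard error 0.342, unadjusted p 0.0126, adjusted p 0.857 in limma). Without *Foxq1* cKO sample 1 or 2 the log2 fold change was 1.21 or 1.18 and the unadjusted p 0.0641 or 0.0713 in limma. It was 0.78 without WT sample 1 (unadjusted p 0.0323 in limma). *Snx3*, a sorting nexin that returns the receptor to the cell surface, had 9316 and 8520 normalized counts against 11556 and 12855. Its groups did not overlap either, and its log2 fold change was 0.45 (unadjusted p 0.0152, adjusted p 0.857 in limma). Without a trend the unadjusted p in limma was 0.185 at the same log2 fold change. It was 0.0639 without WT sample 2 and 0.0992 without *Foxq1* cKO sample 2, at log2 fold changes of 0.39 and 0.38.

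Of 18 tested genes of haem synthesis, transport and breakdown (19 sought), 0 were higher and 1 was lower at that level, beside 2.17% and 3.05% of all genes tested, with a median log2 fold change of -0.11. That gene was *Hmox1*, which encodes the inducible haem oxygenase that frees iron from haem, with 2258 and 1792 normalized counts in WT samples and 721 and 1019 in *Foxq1* cKO samples. Both *Foxq1* cKO samples were below both WT samples, at 43.0% of the WT mean, and the log2 fold change was -1.23 (standard error 0.298, unadjusted p 0.00598, adjusted p 0.857 in limma). *Hmox1* kept an unadjusted p under 0.05 in every other setting tried and with each sample left out. *Alas1*, the most abundant gene of this list and the start of haem synthesis, had a log2 fold change of 0.05, with overlapping groups, and -0.005 without *Foxq1* cKO sample 2. After quantile normalization it was 0.15, and both *Foxq1* cKO samples lay above the WT samples.

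For other ferroxidases, export and hepcidin control, 15 symbols were sought, including alternative names, and 5 genes were tested. Of these, 0 were higher and 1 was lower, against 2.17% and 3.05% of all genes, and the median log2 fold change was -0.095. *Neo1*, a co-receptor in the pathway that controls hepcidin in the liver and a netrin receptor elsewhere, had 1009 and 563 normalized counts in WT samples and 218 and 396 in *Foxq1* cKO samples. Its log2 fold change was -1.36 (unadjusted p 0.0395, adjusted p 0.857 in limma), and the unadjusted p in limma was 0.0607 without a trend, 0.168 without WT sample 1 and 0.185 without *Foxq1* cKO sample 1. The log2 fold changes without these samples were -0.94 and -0.93. *App* was the most abundant of these, at a log2 fold change of -0.10, or 0.005 without WT sample 1.

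No gene passed in the other 3 lists. Of 4 tested genes of other iron import and reduction (13 sought, median log2 fold change -0.16), *Slc39a8*, a metal importer, was the most abundant. *Slc39a8* had a log2 fold change of -0.16, or -0.07 after quantile normalization. *Cybrd1*, singled out after its values were seen, encodes a ferric reductase. It had 421 and 176 normalized counts in WT samples and 15.2 and 142 in *Foxq1* cKO samples. The log2 fold change of *Cybrd1* was -2.50 (standard error 1.19, unadjusted p 0.0792, adjusted p 0.857 in limma). *Foxq1* cKO sample 1, with 14 reads, was far below the other samples and sets much of this size. *Epas1*, the most abundant of 9 tested genes of iron sensing, chaperones and ferritin turnover (10 sought, median 0.07), encodes a transcription factor whose mRNA is known to be controlled by iron regulatory proteins, and its log2 fold change was -0.03, or 0.05 after quantile normalization, and 0.15 without *Foxq1* cKO sample 1. *Isca1* led 21 tested genes of mitochondrial iron and iron-sulfur assembly (23 symbols sought, including alternative names). The log2 fold change of *Isca1* was -0.56 (unadjusted p 0.0604 in limma). Its unadjusted p was 0.0486 in DESeq2 (log2 fold change -0.53) and 0.0444 in limma with the replicate block (-0.56). Without *Foxq1* cKO sample 1 the log2 fold change was -0.85. Without *Foxq1* cKO sample 2 the log2 fold change was -0.26 (unadjusted p 0.326 in limma). The median log2 fold change of that assembly list was 0.16. The groups did not overlap for 5 of its genes in the higher direction and 1 in the lower, for 1 and 5 of the 18 haem genes, 3 and 0 of the 7 trafficking genes, 1 and 2 of the 4 import genes, 2 and 0 of the 9 sensing genes and 0 and 2 of the 5 export genes, beside 18% of all genes tested in each direction.

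**Figure D3:**
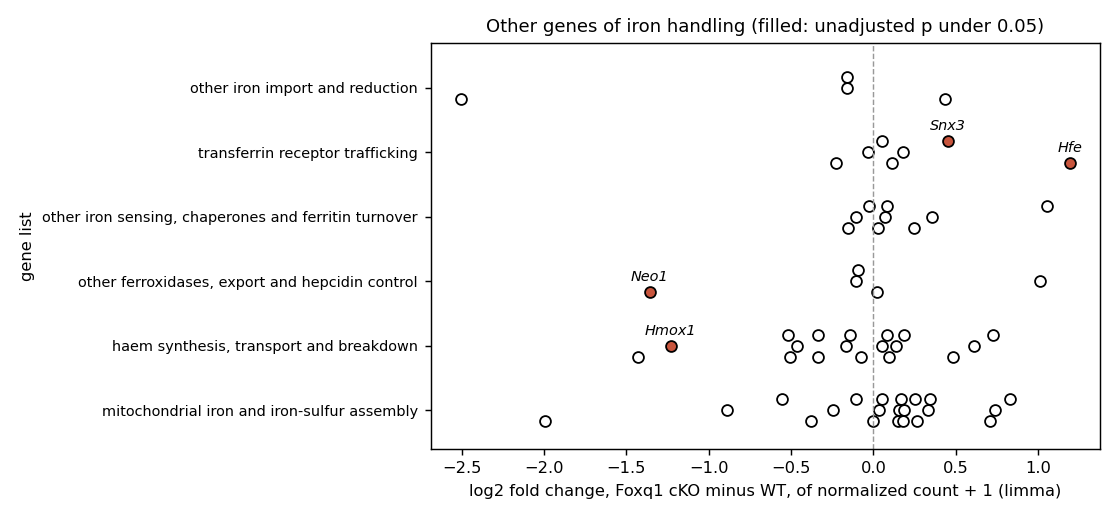
Log2 fold change (horizontal axis, *Foxq1* cKO against WT, on normalized counts plus 1) of each tested gene in 6 other lists of iron handling, with filled points at an unadjusted p under 0.05 in limma. The 4 filled genes are *Hfe* and *Snx3* above 0 and *Neo1* and *Hmox1* below it.

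Markers of the sorted cells and of other cell types were read beside these values, as sums of normalized counts. All 10 endothelial markers were listed, led by *Cldn5*, and summed to 367712 and 340177 in WT samples and 298112 and 334213 in *Foxq1* cKO samples. That sum was lower in both *Foxq1* cKO samples, and the groups overlapped after quantile normalization. Of the 10 markers, 5 did not overlap in the lower direction and 1 in the higher, beside 18% of all genes tested each way. *Flt1*, singled out after its values were seen, was at 70.4% of WT (unadjusted p 0.0463, adjusted p 0.857 in limma). It had 15578 and 10849 normalized counts in WT samples and 9582 and 9017 in *Foxq1* cKO samples. WT sample 1 stood above the rest and sets much of this difference. Pericyte and smooth muscle markers, 6 of 9 with *Rgs5* as the most abundant, summed to 135474, 132017, 136961 and 127924 in WT samples 1 and 2 and *Foxq1* cKO samples 1 and 2, while *Acta2*, *Tagln* and *Myh11* were not among the genes analysed here. Transcripts of mural cells were thus measured beside those of ECs.

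Microglia and macrophage markers were mixed, with a lower sum. With 12 of 13 listed, *Csf1r* as the most abundant and *Cd163* not among the genes analysed here, they summed to 9950 and 12744 in WT samples and 7776 and 8578 in *Foxq1* cKO samples. The *Foxq1* cKO sum was 72.1% of the WT sum, lower in both samples. At the authors' scaling *Trf*, *Steap3*, *Aco1* and *Hmox1* had the same order, as had the endothelial and the astrocyte sums and 18% of all genes tested. Of the 12 markers, 3 had groups that did not overlap in the lower direction (*Csf1r*, *Cx3cr1* and *C1qb*) and 1 in the higher (*C1qc*), beside 18% of all genes tested each way, and the median log2 fold change was -0.12. *Csf1r* was the 1 marker of this list lower at an unadjusted p under 0.05 in limma, beside 3.05% of all genes tested. It was at 55.8% of WT (log2 fold change -0.83, unadjusted p 0.0109, adjusted p 0.857 in limma). *Mrc1*, at 1217 normalized counts in WT sample 2 and 21.9 in WT sample 1, added to the sum of WT sample 2. These markers, apart from *Csf1r*, were named after their values were seen. Astrocyte and radial glia markers, 9 of 9 with *Slc1a3* as the most abundant, summed to 22570 and 21955 in WT samples and 18922 and 17907 in *Foxq1* cKO samples, also lower in both, with 4 markers not overlapping in the lower direction and 1 in the higher, again beside 18% of all genes each way. *Gfap*, singled out after its values were seen, was the 1 marker of that list lower at an unadjusted p under 0.05 in limma. Of all genes tested, 3.05% were lower at that level. *Gfap* had 3073 and 2420 normalized counts in WT samples and 1081 and 1329 in *Foxq1* cKO samples (log2 fold change -1.19, unadjusted p 0.0031, adjusted p 0.857 in limma). The part of these cells in the values of the iron genes was not tested, and in bulk samples fewer cells of a type cannot be told apart from less RNA per cell.

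Erythroid markers bear on iron genes because red cell precursors take up much iron, although the isolation described in the methods includes a step that lyses red cells. With 8 of 13 listed and *Hba-a1* as the most abundant, they summed to 21682 and 16433 in WT samples and 16770 and 21132 in *Foxq1* cKO samples, so the groups overlapped. *Hbb-b1*, *Hbb-b2*, *Hbb-bh1*, *Klf1* and *Gata1* were not among the genes analysed here. Oligodendrocyte lineage markers, a known source of *Trf* later in life, had 4 of 9 genes listed, led by *Cspg4*, which mural cells also express. Their sums were 8486 and 8676 in WT samples and 7535 and 8629 in *Foxq1* cKO samples, which overlapped, and *Olig2*, *Sox10*, *Mbp*, *Mag* and *Mog* were not among the genes analysed here.

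Neuronal markers, 8 of 10 without *Gad1* and *Eomes* and led by *Dcx*, summed to 4449 and 4106 in WT samples and 2887 and 4577 in *Foxq1* cKO samples, with overlap. Choroid plexus epithelium, another source of *Trf* and *Slc40a1* transcripts, was near 0: only *Ttr* of 6 markers was listed, at 41.3 and 1.99 normalized counts in WT samples and 27.2 and 3.05 in *Foxq1* cKO samples, and *Folr1*, *Kl*, *Clic6*, *Otx2* and *Aqp1* were not among the genes analysed here.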

How the data were processed

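The authors deposited 1 table of normalized signal per gene for 4 samples, read counts divided by 1 size factor per sample. The submitters' processing notes name Bowtie2 2.2.3, TopHat2 2.0.12, HTSeq 0.6.0 and the build mm9. Options and annotation are not given in the sources used here. Repeated lines were collapsed to 12693 symbols, none with under 1 read in a sample or under 21 in total. Within a tolerance of 0.01, 100.0% of values in each sample came out as whole reads. These recovered reads were used for edgeR 4.0.16 (quasi-likelihood) and DESeq2 1.42.0.

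The main test was limma 3.58.1 in R 4.3.3 (eBayes with a trend) on log2(value + 1) for the 12472 genes with a mean of at least 10, with Benjamini-Hochberg adjustment over all of them. The 10 members and all lists were chosen with earlier results of these data known. Named were *Foxq1*, all members, and from each other iron list the most abundant gene and up to 4 genes at an unadjusted p under 0.05; from each marker list, the most abundant gene and absent markers. Other markers and *Cybrd1* were chosen after their values were seen. Transcript lengths, sequences and shared 50-base words came from GENCODE M21 (GRCm38), which matched 12678 of 12693 identifiers; the lowest-numbered APPRIS principal transcript was used. Some genes of the lists are not reported here and were left out of their counts. No coordinate was taken from mm9. Alternatives were TMM scaling or quantile normalization, pseudocounts of 0.1 and 5, a minimum mean of 50 or no filter, eBayes run without the trend, a replicate block, both count tools and each sample left out. The tests were first tested on simulated data. Tables and figures were made with pandas 2.3.3 and matplotlib 3.10.9 in Python 3.11.15.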

Additional observations from a re-analysis of the deposited data

How the results depend on the processing

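With all 4 samples kept, 92 of 100 results for the 10 members under the other settings kept their direction and their side of an unadjusted p of 0.05. The exceptions were *Trf* under quantile normalization (log2 fold change -0.28), without a trend (-0.36) and with the replicate block (-0.36), and *Fth1* without a trend (0.27) and in DESeq2 (0.27), which no longer passed; *Aco1* with the block (-0.74) and in DESeq2 (-0.68), which passed; and *Ftl1*, which changed sign under quantile normalization (0.071). Of 100 results for the 10 other named genes, 95 were kept. *Epas1* (0.047) changed sign under quantile normalization. Without a trend *Snx3* (0.45) and *Neo1* (-1.36) no longer passed, while *Isca1* passed with the replicate block (-0.56) and in DESeq2 (-0.53). The causes were not tested. Genes at an adjusted p under 0.05 numbered 59 in DESeq2 and 0 in the other settings. Whether the replicate numbers pair the samples is not known. Same-numbered samples deviated with a correlation over genes of 0.0325, which compares a single difference within each group and cannot exclude a pairing. In limma the block gave 693 genes at an unadjusted p under 0.05 against 651. The smallest adjusted p in limma was 0.0562 with the block, against 0.857 without it.

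With each sample left out, the lone sample was assumed to vary like the other group. Of 40 such results for the 10 members, 7 changed direction, as did 4 of 40 for the 10 other named genes. Genes at an unadjusted p under 0.05 then ranged from 276 (without *Foxq1* cKO sample 1) to 1569 (without WT sample 2), and the median of the 10 members from -0.086 to 0.101. Log2 fold changes ranged from -0.17 to 0.18 for *Tfrc*, -0.375 to -0.355 for *Trf*, 0.23 to 0.31 for *Fth1*, -0.052 to 0.026 for *Ftl1*, 0.02 to 0.33 for *Slc40a1*, -0.71 to -0.31 for *Steap3*, -0.088 to 1.63 for *Slc11a2*, -0.375 to 0.22 for *Ireb2*, -1.17 to -0.31 for *Aco1* and -0.005 to 3.16 for *Heph*. Among the others the range crossed 0 for *Epas1* (-0.20 to 0.15), *App* (-0.19 to 0.005) and *Alas1* (-0.005 to 0.11). Apart from *Heph*, with 59 reads in WT sample 2, each member had at least 431 reads in every sample. The spread between samples set the precision, with a median standard error of 0.496 over all genes tested.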
